A study of Mus musculus with 15 samples.

Results

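The amino acid synthesis enzymes and cytosolic aminoacyl-tRNA synthetases were followed in Ba/F3-beta cells, a mouse pro-B cell line that depends on interleukin 3 (IL-3), on the Affymetrix U74A, U74B and U74C arrays. The set was given as a list of 35 genes, of which 15 make asparagine, serine, glycine, proline, cysteine, aspartate or alanine or move folate carbon units, and 20 charge tRNAs. All probe sets annotated to 1 of these genes were taken. Of the 35 genes 33 had a probe set, 69 probe sets in all, against 15964 genes with a probe set on the arrays as a whole. Of the 69 probe sets 43 reached the signal floor of 120 on at least 1 array. They gave a value for 27 genes, 9 synthesis enzymes and 18 synthetases, against 8683 genes in the whole series.

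The study asked which genes IL-3 switches on through STAT5. All cells had been transfected with siRNA. One set of cells carried the control siRNA, named scramble I, and was left without IL-3 or given IL-3 for 30 min or 2 h. The other set carried siRNAs against Stat5A and Stat5B and had the same 30 min or 2 h of IL-3. Stat5 siRNA cells without IL-3 were not analysed here. Each of these 5 conditions had 1 array on each of the 3 designs, so a gene was compared between 2 arrays, no difference below has a replicate check and no p-value was computed. In extracts of whole cultures, fewer cells of a type and less RNA per cell cannot be told apart.

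Aminoacyl-tRNA synthetases join each amino acid to its tRNA, and the synthesis enzymes supply those amino acids that a cell can make. When amino acids run short or the endoplasmic reticulum is stressed, phosphorylation of the initiation factor eIF2 lowers translation in general but raises translation of the mRNA of ATF4. ATF4, a transcription factor, binds C/EBP-ATF composite elements and drives Asns, the serine pathway, amino acid transporters and many synthetase genes. Growth factors and MYC raise the same enzymes when they drive protein synthesis.

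The siRNA targets were lower in the cells given Stat5 siRNA. Both measured Stat5a probe sets are of the cross-hybridising kind, and one gave 548 in control cells and 277 in Stat5 siRNA cells at 30 min. At 2 h it gave 475 and 255. The U74B probe set of Stat5b went from 499 to 166 between the siRNAs at 30 min and from 177 to 126 at 2 h, where the control signal itself was low. Of the 13 markers of IL-3-responsive pro-B cells 12 had a probe set and 5 reached the floor. Those 5 were the IL-3 receptor chains Il3ra, Csf2rb and Csf2rb2, the leukocyte antigen Ptprc and the B cell receptor subunit Cd79b. Kit, Cd24a, Cd79a, Vpreb1, Igll1, Ebf1 and Pax5 stayed under the floor. Of 13 markers of other cell types with a probe set 2 reached the floor, Epcam and Col1a2. Col1a2 reached it only on a cross-hybridising probe set, while its other probe set lay between 2.94 and 5.42. Epcam reached it only on U74C, while its U74A probe set lay between 1.25 and 4.98. Arrays of 1 design correlated between 0.903 and 0.969 over log2 signals. Between pairs of probe sets of 1 gene the log2 ratio had an SD of 0.25 for IL-3 at 30 min and 0.32 at 2 h. For the siRNA the SD was 0.23 at 30 min and 0.26 at 2 h. On U74C alone the SDs were larger, at 0.39, 0.42, 0.33 and 0.31 in the same order. These SDs are the only measure of technical error at hand and do not cover differences between cultures.

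Promoter sequence is shown for the members in which the core of the C/EBP-ATF element was found, because that element is the textbook route from ATF4 to these genes. The RefSeq windows on GRCm38.p6 run from 250 bases before to 50 bases after an annotated start. Of the 35 genes 27 matched a window, with 28 windows in all, and Cth, Cars, Hars, Lars, Nars, Rars, Vars and Wars did not. The letters TGATGNAA, on either strand, were present in 8 of the 28 windows (28.6%) and in 1304 of 32851 windows of all genes (3.97%). In Asns the match began 23 bases before the start, in Tars 15, in Gars 30, in Aars 112, in Got1 102 and in Pycr1 103 bases before it. In Iars and Yars it lay just after the start, at bases 8 and 4, and Aars had another match at base 10. The table's start is not the outermost annotated start of Aars or Yars. The 130 bases before the start are given 5′ to 3′ on the gene's own strand for 4 measured members, with the matched letters in capitals. For Iars and Yars 30 bases around the match are given.
Asns, chr6:7693210-7693339, minus strand: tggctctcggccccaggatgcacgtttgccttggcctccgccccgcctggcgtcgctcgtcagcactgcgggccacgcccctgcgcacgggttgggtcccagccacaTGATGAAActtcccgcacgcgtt
Tars, chr15:11399659-11399788, minus strand: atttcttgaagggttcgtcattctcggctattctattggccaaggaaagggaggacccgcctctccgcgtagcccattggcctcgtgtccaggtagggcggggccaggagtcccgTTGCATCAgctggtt
Gars, chr6:55037871-55038000, plus strand: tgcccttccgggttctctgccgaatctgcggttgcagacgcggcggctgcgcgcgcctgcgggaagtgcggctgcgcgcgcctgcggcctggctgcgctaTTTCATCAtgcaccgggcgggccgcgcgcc
Aars, chr8:111033712-111033841, plus strand: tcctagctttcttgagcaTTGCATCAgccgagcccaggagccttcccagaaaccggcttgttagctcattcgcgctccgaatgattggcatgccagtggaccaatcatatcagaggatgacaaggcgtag
Iars, chr13:49682126-49682155, plus strand: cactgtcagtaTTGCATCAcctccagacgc
Yars, chr4:129189895-129189924, plus strand: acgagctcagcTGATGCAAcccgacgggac

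A pair of other motifs was searched on both strands. The E-box CACGTG, which MYC and its relatives bind, was present in 6 of the 28 windows (21.4%) against 7.15% of all windows, in Aars, Iars, Tars, Farsb, Aldh18a1 and Cbs. The STAT element TTCNNNGAA was present in 4 windows (14.3%) against 8.30% of all windows, in Aars, Shmt2, Kars and Aldh18a1. None of the matches of different motifs in these windows overlapped. These are matches of letters and not sites shown to be bound, and a window without a match says only that the letters are absent from it.

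**Figure D1:**
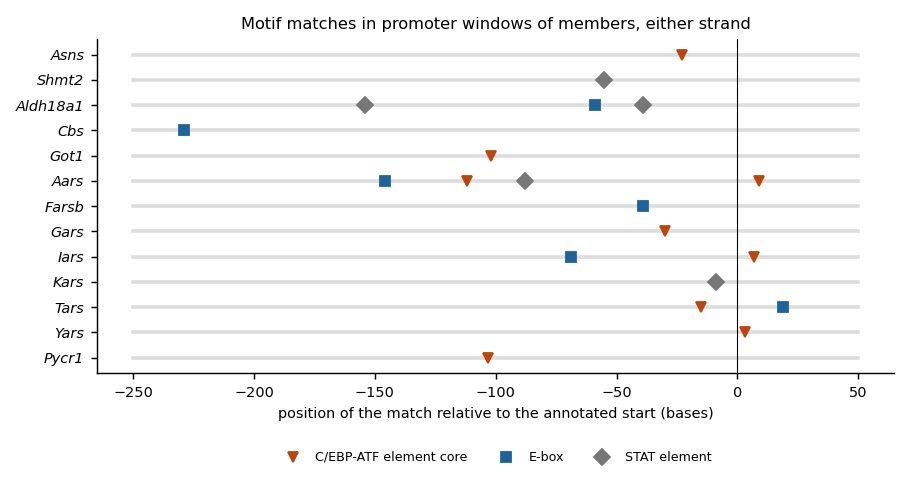
Positions of motif matches in the promoter windows of the 13 members with any match; the x axis is the distance in bases of the first base of the match from the annotated start, grey lines are the windows, and markers stand for the C/EBP-ATF core, the E-box and the STAT element on either strand. In Asns, Tars and Gars the C/EBP-ATF core lies within 30 bases before the start, and Aars carries all 3 motifs.

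IL-3 for 30 min left nearly all of these genes within 1.5-fold of the unstimulated cells. Of 26 measured members 0 were higher and 0 lower by 2-fold or more, against 0.711% and 0.343% of all 8155 genes measured. At 1.5-fold 1 member was higher and 1 lower, against 2.97% and 2.37% of all genes. The median log2 ratio of the members was -0.11, with 7 of 26 above 0, against -0.01 and 49.0% above 0 over all genes.

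The member past 1.5-fold on the high side was Sars, which charges serine tRNA. Its signal was 132 without IL-3, 221 after 30 min and 213 after 2 h with control siRNA, and 207 and 218 with Stat5 siRNA at the same times. All 4 arrays with IL-3 lay together, well above the single array without it, and the log2 ratios to the unstimulated array were 0.75 at 30 min and 0.69 at 2 h. On the low side was Yars, which charges tyrosine tRNA, at 214 without IL-3 and 139 after 30 min, a log2 ratio of -0.62. Its signal at 2 h was 180, a ratio of -0.25, and the Stat5 siRNA arrays had 196 and 244.

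After 2 h of IL-3 a small number of synthetases stood higher, led by Tars, while the set as a whole was close to the unstimulated level. At 2-fold 1 of 26 members was higher and 0 lower, against 2.45% and 1.63% of all 8294 genes. At 1.5-fold 4 were higher and 0 lower, against 7.92% and 8.28%. The median was 0.07 with 17 of 26 above 0, against -0.03 and 46.2% above 0 for all genes. The 9 measured synthesis enzymes had a median of 0.12 and the 17 synthetases of 0.07. The comparisons at 30 min and 2 h share the array without IL-3, so a low or high signal there enters both.

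Tars, which charges threonine tRNA, had signals of 197 without IL-3, 253 after 30 min and 424 after 2 h in control cells, a 2.15-fold difference at 2 h. In Stat5 siRNA cells it had 206 at 30 min and 426 at 2 h. The 2 h signals of both siRNAs differed by less than those of any other pair of conditions for this gene, and both were above all other arrays.

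Rars, the arginine enzyme, went from 425 without IL-3 to 377 at 30 min and 729 at 2 h, a log2 ratio of 0.78 at 2 h, with 470 and 656 in Stat5 siRNA cells. Shmt1, the cytosolic hydroxymethyltransferase that converts serine to glycine while loading folate, had 185, 166 and 295 on its U74B probe set. On a U74A probe set it had 103, 116 and 206. In Stat5 siRNA cells these were 178 and 252 on U74B and 101 and 168 on U74A. Another U74A probe set lay between 2.82 and 11.6, under the floor on all 5 arrays. As a gene Shmt1 had a log2 ratio of 0.73 at 2 h, with 1 of its signals under the floor, and a U74C probe set that can cross-hybridise gave 1.17. For Tars, Rars and Shmt1 both arrays at 2 h were thus above the array without IL-3, whichever siRNA was used.

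Other members had smaller ratios at 2 h. Iars, the isoleucine enzyme, had 436, 359 and 593 in control cells, with log2 ratios of -0.28 at 30 min and 0.44 at 2 h. Shmt2, the mitochondrial counterpart of Shmt1, had 128, 138 and 174, a ratio of 0.44, on a probe set that can cross-hybridise. Its other probe set, on U74B, lay between 68.4 and 101, under the floor on all 5 arrays. Aars, the alanine enzyme, had a ratio of 0.35, Gpt2, the mitochondrial alanine transaminase, 0.30, Nars, the asparagine enzyme, 0.27 and Farsa, the catalytic subunit for phenylalanine, 0.21.

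The remaining members lay between -0.25 and 0.16 at 2 h. Asns, which makes asparagine from aspartate and glutamine, had 1147, 1009 and 1100 on its U74A probe set, so its 3 control signals were close together. Psat1, the transaminase of the serine pathway, had 1443, 1364 and 1284, and Psph, its phosphatase, 133, 136 and 145. Mthfd2, the mitochondrial folate dehydrogenase, had 636, 606 and 713. Eprs, which charges both glutamate and proline tRNAs, had 569, 523 and 562 on U74B. Lars, Mars1, Qars, Vars, Wars and Hars, the enzymes for leucine, methionine, glutamine, valine, tryptophan and histidine, had ratios of -0.18, 0.04, -0.18, 0.07, -0.06 and 0.03.

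**Figure D2:**
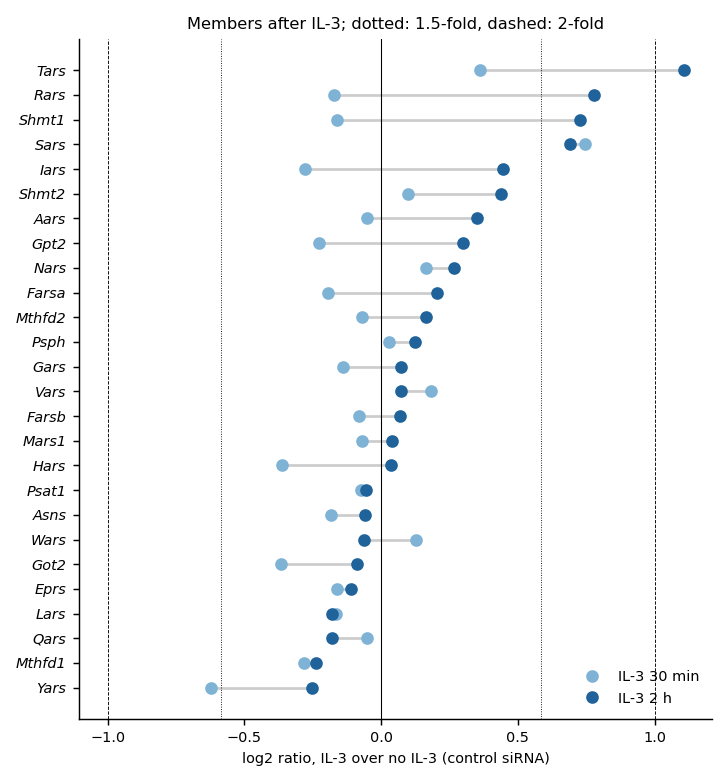
Log2 ratio of IL-3-treated over unstimulated control siRNA cells for the 26 members measured in both comparisons, at 30 min (light points) and 2 h (dark points), 1 array per condition and design. Tars alone passes the 2-fold line, at 2 h, and Rars, Shmt1 and Sars lie between the 1.5-fold and 2-fold lines.

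Stat5 siRNA cells had slightly higher signals for most of these genes at 30 min of IL-3, though none differed by 1.5-fold. Of 26 measured members 0 were higher and 0 lower by 2-fold or more, against 0.308% and 0.382% of 8124 genes. At 1.5-fold the counts were again 0 and 0, against 2.07% and 2.33%. The log2 ratio was above 0 for 22 of the 26 members, 84.6%, against 50.1% of all genes, and the median was 0.19 against 0.001 for all genes. The synthesis enzymes had a median of 0.25 and the synthetases of 0.17. In the same comparison all 5 measured markers of IL-3-responsive pro-B cells had ratios below 0, from -0.65 to -0.05 with a median of -0.32. The lowest were those of the receptor chains Csf2rb2 (-0.65) and Csf2rb (-0.53), and at 2 h 1 of 4 was above 0, with a median of -0.19. Of the 2 measured markers of other cell types, Epcam had ratios of 0.27 at 30 min and 0.47 at 2 h. A cross-hybridising probe set of Epcam gave -0.06 and 0.07. Col1a2, read from a cross-hybridising probe set, had 0.17 and -0.30. The part of these markers in the members' ratios was not tested. At each time the control array with IL-3 is the denominator of the siRNA ratio and the numerator of the IL-3 ratio. A low or high signal on that array thus enters both ratios with opposite sign. At 30 min the members had a median of -0.11 for IL-3 and 0.19 for the siRNA, and the part of the shared array was not tested.

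At 2 h the count above 0 was lower, and a few members were further from 0. Of 27 measured members 0 were higher and 0 lower by 2-fold, against 0.504% and 0.43% of 8132 genes. At 1.5-fold 2 were higher, Mthfd2 and Mars1, and 0 lower, against 3.37% and 3.15%. The ratio was above 0 for 19 of 27 members, 70.4%, against 50.5% of all genes, with a median of 0.21 against 0.004. Cars is among the 19 and was measured only through the array with Stat5 siRNA, which fixed its sign. Left out, a choice made after seeing the data, it leaves 18 of 26 above 0 and a median of 0.20. The synthesis enzymes and the synthetases had the same median to 2 decimals, 0.21.

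The comparisons of siRNA at the 2 times share no array. Of 26 members measured at both, 15 had a ratio above 0 at both times and 1, Psph, below 0 at both. Over the 7699 genes measured at both times 28.3% were above 0 at both and 27.5% below.

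**Figure D3:**
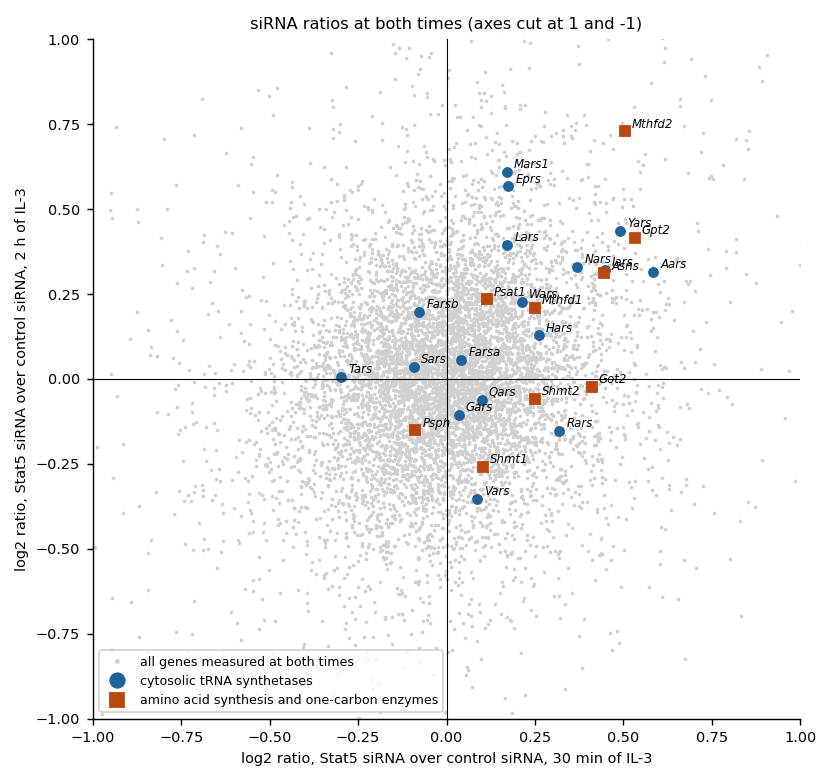
Log2 ratio of Stat5 siRNA over control siRNA at 30 min (x axis) and 2 h (y axis) of IL-3 for the 26 members measured at both times, synthetases as circles and synthesis enzymes as squares, with all genes in grey; the axes stop at -1 and 1, so some grey points lie outside. The upper right part holds 15 members and the lower left only Psph.

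Asparagine synthetase had the same direction at both times on its main probe set. Asns gave 1009 in control and 1375 in Stat5 siRNA cells at 30 min. At 2 h it gave 1100 and 1537, so both Stat5 siRNA arrays were above all 3 control arrays. The log2 ratio of this probe set was 0.45 at 30 min and 0.48 at 2 h. A U74C probe set with 73.6 and 109 at 30 min, and 70.9 and 132 at 2 h, reached the floor only on the last of these arrays and brought the value of the gene at 2 h down to 0.31. Another U74C probe set, which can cross-hybridise, had 201, 140 and 145 in control cells and 196 and 111 with the Stat5 siRNAs, ratios of 0.48 at 30 min and -0.27 at 2 h. Its 2 h direction is thus opposite to that of the U74A probe set.

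In the serine and folate pathway the largest ratios were those of Mthfd2. At 30 min its signal was 606 in control cells and 860 in Stat5 siRNA cells, a ratio of 0.50. At 2 h it was 713 and 1182, a 1.66-fold difference. At 2 h 98.2% of all genes had the same or a lower ratio. Both Stat5 siRNA signals were above the 3 control signals, of which the highest was 713.

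Psat1, on its U74A probe set, went from 1364 to 1476 between the siRNAs at 30 min and from 1284 to 1622 at 2 h. A U74B probe set near the floor had 125, 103 and 131 in control cells and 86.5 and 143 with the Stat5 siRNAs, and the gene ratios were 0.11 and 0.23. Mthfd1, the trifunctional cytosolic folate enzyme, had gene ratios of 0.25 and 0.21, but its probe sets disagreed at 30 min, with 196 and 233 on U74B, 95.6 and 207 on one U74C probe set and 383 and 259 on another. At 2 h these were 211 and 234, 99.9 and 188, and 325 and 376, and without IL-3 they were 238, 176 and 384. Shmt2 had 138 and 164 at 30 min, then 174 and 167 at 2 h. Shmt1 had ratios of 0.10 and -0.26, and Psph, with 128 and 131 in Stat5 siRNA cells, of -0.09 and -0.15. Within this pathway the gene ratio of Mthfd2 was thus more than 2 times the SD between probe sets at both times, and those of the others were not at either.

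Among the transaminases Gpt2, at 159 without IL-3, gave 136 in control and 197 in Stat5 siRNA cells at 30 min. At 2 h it gave 196 and 261, and the log2 ratios were 0.53 and 0.42. Its 30 min Stat5 siRNA signal was close to the 2 h control signal. Got2, the mitochondrial aspartate transaminase, was read from 2 cross-hybridising probe sets. Its other probe set lay between 0.894 and 6.77, under the floor on all 5 arrays. The 2 cross-hybridising probe sets had 291, 199 and 255, and 466, 409 and 468, in control cells. With the Stat5 siRNAs they had 293 and 212, and 491 and 545, and the gene ratios were 0.41 and -0.02.

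Aars, Yars, Iars and Nars had the 4 largest synthetase ratios at 30 min. Aars, at 211 without IL-3, had 204 and 306 at 30 min, just under 1.5-fold with a log2 ratio of 0.58. At 2 h it had 270 and 336, a ratio of 0.32. Both Stat5 siRNA arrays were above all 3 control arrays. Yars went from 139 to 196 between the siRNAs at 30 min and from 180 to 244 at 2 h, ratios of 0.49 and 0.44. Its control signal without IL-3, 214, lay between the Stat5 siRNA values, and the low control array at 30 min enters its IL-3 ratio as well. Iars, at 359 and 490, then 593 and 741, had ratios of 0.45 and 0.32. Nars, at 293 without IL-3, went from 328 to 424 at 30 min and from 352 to 442 at 2 h, ratios of 0.37 and 0.33.

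Eprs, Mars1 and Lars differed mainly at 2 h. Mars1 stood at 219 and 247 at 30 min. At 2 h it stood at 237 and 361, a 1.53-fold difference, and its 2 h Stat5 siRNA array stood above the other 4, which lay between 219 and 247. Eprs had 562 and 862 on U74B and 234 and 334 on U74A at 2 h, a gene ratio of 0.57, after 523 and 615, and 233 and 253, at 30 min. The 2 probe sets of Eprs, on separate arrays, thus gave 0.62 and 0.52 at 2 h. Lars, at 457 without IL-3, had 408 and 460, then 403 and 530, ratios of 0.17 and 0.39. Cars, the cysteine enzyme, reached the floor only in Stat5 siRNA cells at 2 h, at 170 against 105, and was at least 1.42-fold higher. Its other signals were 76.0 without IL-3, 85.9 in control cells at 30 min and 94.9 with the Stat5 siRNAs at 30 min.

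**Figure D4:**
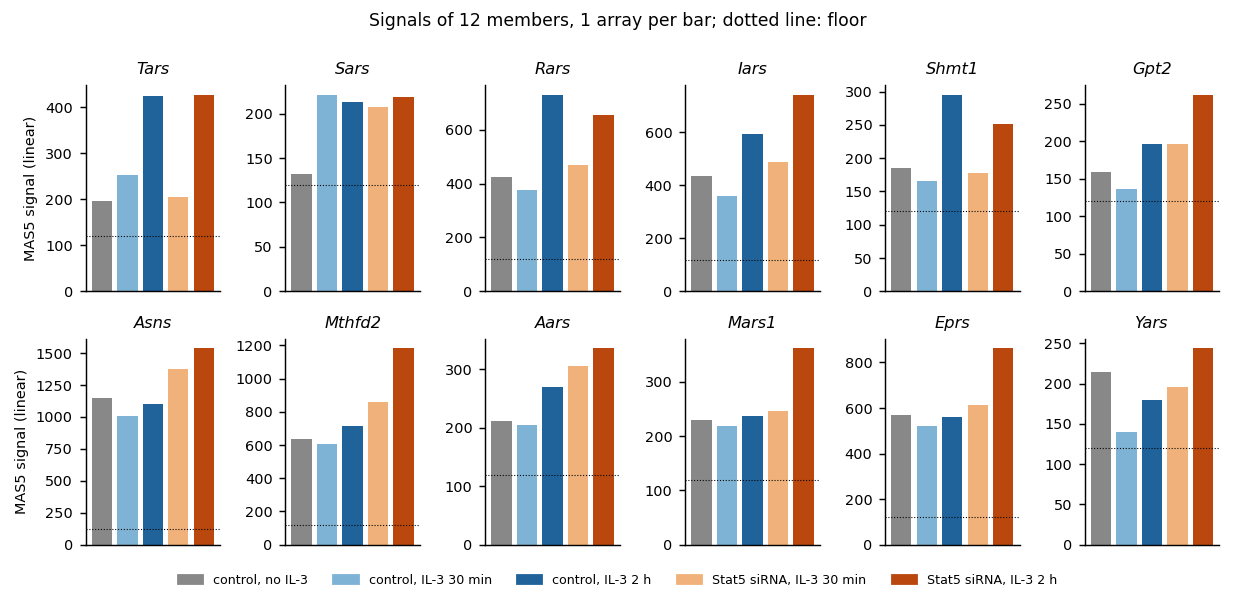
MAS5 signals on a linear axis from 0 for 12 members, 1 probe set each and 1 array per bar, in control siRNA cells without IL-3, at 30 min and at 2 h, and in Stat5 siRNA cells at 30 min and 2 h; the dotted line is the floor of 120. The upper row shows members with the larger IL-3 ratios and Gpt2, with Tars at 424 and 426 at 2 h. In the lower row Asns, Mthfd2, Aars, Mars1 and Eprs have both Stat5 siRNA bars above all 3 control bars, and Yars does not. Mars1 stands at 361 with Stat5 siRNA at 2 h.

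Other synthetases had a ratio below 0.1 with Stat5 siRNA at 1 or both times. Tars had -0.30 at 30 min and 0.01 at 2 h, Sars -0.09 and 0.04, Qars 0.10 and -0.06, Farsa 0.04 and 0.06 and Rars 0.32 and -0.15. Qars had 762, 735 and 672 in control cells and 787 and 644 with the Stat5 siRNAs on U74A, with a cross-hybridising U74B probe set between 108 and 163. Farsa had 276, 241 and 318 in control cells and 248 and 331 with the Stat5 siRNAs. For Farsa the signals at 1 time lay closer together than those of the 2 times of either siRNA.

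Vars, at 588 without IL-3, had 668 and 708 at 30 min but 618 and 484 at 2 h, ratios of 0.09 and -0.35, the lowest ratio among the 27 members at 2 h. Hars had 202, 157 and 207 in control cells and 188 and 226 with the Stat5 siRNAs, ratios of 0.26 and 0.13. Farsb, the regulatory subunit for phenylalanine, was read from 3 probe sets. A U74C probe set had 1164, 1183 and 1468 in control cells and 1353 and 1734 with the Stat5 siRNAs. The others had 267, 252 and 280 against 232 and 245, and 143, 126 and 148 against 119 and 170. The probe sets did not move one way, and the gene ratios were -0.08 and 0.20. A cross-hybridising probe set of Farsb gave 0.30 and 0.68.

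Gars and Wars depended on the probe set. Gars, the glycine enzyme, had 570 without IL-3, then 507 and 612, then 622 and 882 on U74A, a ratio of 0.50 at 2 h. On U74C it had 254, then 236 and 205, then 257 and 157, a ratio of -0.71 at 2 h. The gene values of 0.03 and -0.11 are the middle of these opposite readings. Wars, which interferon also induces, had 343, 279 and 348 in control cells and 347 and 334 with the Stat5 siRNAs on one U74A probe set. On the other it had 492, 722 and 445 against 779 and 634, and the gene ratios were 0.21 and 0.23. A cross-hybridising U74C probe set had 363, 185 and 203 against 267 and 302.

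Of the 20 measured members with a window 6 had a C/EBP-ATF core in it, Asns, Aars, Gars, Iars, Tars and Yars. Their siRNA ratios had a median of 0.45 at 30 min and 0.31 at 2 h, with 5 of 6 above 0 at each time, and ran from -0.30 to 0.58 at 30 min and from -0.11 to 0.44 at 2 h. The 14 measured members whose window lacked the letters had medians of 0.14 and 0.13, with 11 and 9 above 0. Mthfd2 and Mars1 belonged to these 14. For the E-box the medians were 0.19 with it (4 members) and 0.17 without (16 members) at 30 min, and 0.26 and 0.13 at 2 h. For the STAT element they were 0.42 with it, over 2 members, and 0.14 without at 30 min, and 0.13 and 0.20 at 2 h. Over all genes the 182 measured at 30 min with the letters had a median of 0.01, with 52.7% above 0, against -0.002 and 49.8% for 6468 genes without. At 2 h the 181 with the letters had a median of 0.08, with 61.9% above 0, against -0.001 and 49.8% of 6479 without. These are descriptions of the arrays, with ranges that overlap widely.

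The 13 synthetases known to respond to ATF4 had a median siRNA ratio of 0.17 at 30 min, over the 12 measured then, and 0.32 at 2 h, with 10 and 11 above 0. Without Cars the count at 2 h was 10 of 12, with the same median to 2 decimals. The list was drawn with results of these data known, so its medians are not independent of them. All measured cytosolic synthetases had medians of 0.17 and 0.21, with 14 of 17 and 14 of 18 above 0. Over all genes 50.1% and 50.5% were above 0. The synthetases of the multi-synthetase complex, a cytosolic assembly of enzymes on a protein scaffold, had 6 measured members, with medians of 0.17 and 0.36 and 6 and 4 above 0. The scaffold genes Aimp1, Aimp2 and Eef1e1 had siRNA medians of 0.06 and 0.19. With IL-3 at 2 h the scaffold had a median of 0.62 and the enzymes of the complex -0.04. Eef1e1 had 736 without IL-3, 832 at 30 min and 2369 at 2 h, 3.22-fold higher at 2 h, with 944 and 2465 in Stat5 siRNA cells, and Aimp2 had 399, 393 and 614, a ratio of 0.62, which is also the median. Aimp1 went the other way, with 1060, 979 and 907, a ratio of -0.22.

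The mitochondrial synthetases, which serve translation inside that organelle, gave no gene value past 1.5-fold in any comparison. For Mars2 the probe sets gave unlike values. The one that reached the floor on all 5 arrays had 155, 222 and 361 in control cells and 194 and 407 with the Stat5 siRNAs, a log2 ratio of 1.22 for IL-3 at 2 h. A pair of others reached it on 1 array each, so their ratios of 0.21 and 0.04 are lower bounds. These bounds brought the gene value to 0.21. The siRNA median of the mitochondrial synthetases was 0.13 over 13 genes at 30 min, with 11 above 0, against 50.1% of all genes. At 2 h it was 0.08 over 11 genes, with 8 above 0, against 50.5% of all genes. At 30 min 1 of these synthetases, and at 2 h 2, were measured through 1 side alone, which fixed their signs. Left out, they leave 10 of 12 and 7 of 9 above 0, with medians of 0.12 and 0.08. With IL-3 the medians of the mitochondrial synthetases were 0.04 at 30 min and -0.04 at 2 h. The genes of tRNA export and processing had an IL-3 median of 0.44 at 2 h with 8 of 8 above 0, against 46.2% of all genes. The largest ratios were those of Trnt1, which adds the CCA end of tRNAs (0.96), and Sepsecs, of selenocysteine tRNA (0.94). The siRNA median of the tRNA export and processing genes at 2 h was -0.21, with 2 of 8 above 0. The other amino acid and folate enzymes, 15 measured at 2 h, had an IL-3 median of -0.22 with Mthfd1l at -0.66. Their siRNA medians were 0.06 and 0.07. Without 1 gene measured at 2 h through 1 side alone, the medians at 2 h were -0.24 for IL-3 and 0.08 for the siRNA.

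The regulators of the amino acid response had siRNA medians of 0.46 at 30 min and 0.59 at 2 h, which include genes measured only through the arrays with Stat5 siRNA. Atf4 had signals of 376 without IL-3, 608 at 30 min and 821 at 2 h in control cells, and 1018 and 1236 in Stat5 siRNA cells. Both Stat5 siRNA arrays were thus above all control arrays, with siRNA ratios of 0.74 and 0.59, and the IL-3 ratios were 0.69 and 1.13. Ddit3, the stress factor CHOP, was under the floor on all control arrays, between 39.6 and 85.0, and had 330 and 364 in Stat5 siRNA cells, at least 2.75-fold and 3.04-fold higher. Trib3, an inhibitor of ATF4, reached the floor only with Stat5 siRNA at 2 h, at 263 against 61.0, at least 2.20-fold higher.

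Of the 9 regulators measured at 2 h 5 were higher by 1.5-fold with Stat5 siRNA and 0 lower, against 3.37% and 3.15% of all genes. Ddit3 and Trib3 are among the 5 and were measured only through the arrays with Stat5 siRNA, so they could count only as higher. Without the genes measured through 1 side alone, which also include Chac1 at 2 h, 3 of 6 were higher by 1.5-fold at 2 h, with a median of 0.46, and 2 of 6 at 30 min, with a median of 0.23. The others past that size at 2 h were Atf4 (0.59), Cebpb (0.64), a partner of ATF4, and Ddit4 (0.89), an mTORC1 inhibitor that ATF4 can induce. At 30 min Cebpb had a ratio of -0.01. Ddit4 went from 508 without IL-3 to 158 at 30 min and 125 at 2 h in control cells, and stood at 262 and 231 in Stat5 siRNA cells. It was thus low on every array with IL-3 and less so with Stat5 siRNA. Sesn2, a leucine sensor in the mTORC1 pathway, had IL-3 ratios of 0.70 and 0.84 and siRNA ratios of -0.51 and 0.23, on a probe set that can cross-hybridise.

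Amino acid transporters had a siRNA median of 0.20 over 12 genes at 30 min and 0.32 over 11 at 2 h. At 30 min 2 of the 12 were measured only through the array with Stat5 siRNA, which fixed their sign. Without them 6 of 10 were above 0, with a median of 0.21. At 1.5-fold 1 was higher and 0 lower at 30 min, against 2.07% and 2.33% of all genes, and 3 were higher and 0 lower at 2 h, against 3.37% and 3.15%. Slc3a2, the heavy chain shared by several exchangers, went from 1370 without IL-3 to 961 at 30 min and 871 at 2 h in control cells. It stood at 1653 and 1347 in Stat5 siRNA cells, ratios of 0.78 and 0.63. Slc7a1, an arginine and lysine carrier, had 417 and 685 at 2 h, and Slc1a4, a neutral amino acid exchanger, 181 and 305. With IL-3 at 2 h 3 transporters were higher by 1.5-fold and 2 lower, against 7.92% and 8.28% of all genes. The largest ratios were those of Slc1a5, a glutamine carrier read from cross-hybridising probe sets (0.90), Slc6a9, a glycine carrier (0.83), Slc7a1 (0.69) and Slc7a3, another cationic carrier on a cross-hybridising probe set (-0.67).

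**Figure D5:**
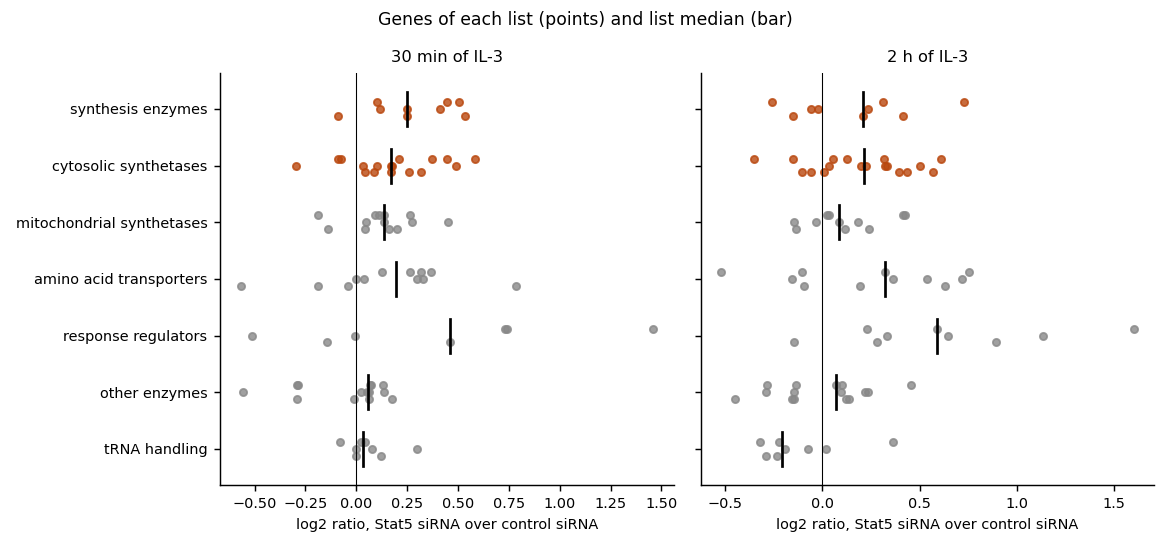
Log2 ratio of Stat5 siRNA over control siRNA for each measured gene of 7 lists at 30 min (left) and 2 h (right) of IL-3, with the median of each list as a bar and a separate x scale in each panel; members are in orange and the neighbouring lists in grey. The response regulators reach furthest to the right, with medians of 0.46 and 0.59, and tRNA handling has a median of -0.21 at 2 h, with 2 of 8 genes above 0.

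There were 8 members without a value. Pycr1, of proline synthesis, and Dars, the aspartate enzyme, had no probe set that named them alone. Phgdh, the first enzyme of serine synthesis, was read only by a U74A probe set that can cross-hybridise, with signals from 28.5 to 42.9. Aldh18a1, the first enzyme of proline synthesis, had 60.2, 50.6 and 83.1 in control cells and 68.3 and 100 with Stat5 siRNA, under the floor on all 5 arrays. Cth and Cbs, which make cysteine from homocysteine, stayed at or below 24.9 on all their probe sets, and Got1, the cytosolic aspartate transaminase, at or below 3.17. Kars, the lysine enzyme, had signals of at most 36.6, although every cell needs this enzyme, so a low signal of these probe sets does not show that the mRNA was low.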

How the data were processed

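The deposited values are linear intensity values, 1 per probe set and array, which the authors made with MAS5, per the submitters' processing notes and the series text. Other settings of that step are not given in the sources used here. With the outer 2% trimmed at either end, the mean signal of the 15 arrays ran from 150.04 to 150.10, and each array was set to a common trimmed mean. The floor (119.9) is the signal that 14553 of 36701 non-control probe sets, the number the design text gives as passing filters, reached on their highest array. A probe set counted in a comparison if 1 of its 2 signals reached the floor, and lower signals were raised to it, which makes such ratios bounds ("at least"). A gene's value was the median log2 ratio of its probe sets. Those ending in _f_at, _r_at, _i_at or _x_at, which can cross-hybridise, were used only where a gene had no other that counted in that comparison. A gene was called at 2-fold, or at 1.5-fold as a lower size, and these are sizes and no tests.

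Names came from the platform annotation, which gave 29131 probe sets 1 symbol, 724 several and 6846 none, with 0 symbols updated through the GRCm38.p6 gene table. Signal levels of different genes were not compared. The members and lists were chosen with earlier results of these data known. All members are named, and from the other lists up to 4 genes per comparison past 1.5-fold, with Atf4, Ddit3, Trib3, Stat5a and Stat5b. Scaling, the floor, the choice of probe set and of array design were varied. The number of arrays limits the precision. The steps were tested on simulated data with Python 3.11.15, numpy 2.4.6 and pandas 2.3.3.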

Additional observations from a re-analysis of the deposited data

Results flagged for a closer look

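Iars had log2 ratios to the unstimulated array of opposite sign at the 2 times of IL-3, -0.28 at 30 min and 0.44 at 2 h, each beyond the SD between probe sets of 1 gene. It was read from 1 probe set, both ratios use the same unstimulated array, and the difference between the times was not tested.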

How the results depend on the processing

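No paired analysis was possible because each condition had 1 array per design. The median ratio of the members kept its sign under all 10 alternatives in each comparison, at -0.16 to -0.08 for IL-3 at 30 min, 0.07 to 0.12 for IL-3 at 2 h, 0.11 to 0.23 for the siRNA at 30 min and 0.20 to 0.32 for the siRNA at 2 h. With the floor doubled, the members past 1.5-fold with IL-3 at 30 min were 0 higher and 0 lower, and with IL-3 at 2 h 2 were past 1.5-fold and 0 past 2-fold, Tars being at 0.82. For the siRNA at 30 min quantile scaling gave 1 member past 1.5-fold, Aars. For the siRNA at 2 h quantile scaling gave 1, and median scaling, the halved floor and signals not raised to the floor gave 4 each, where Asns on its raised signal moved from 0.31 to 0.69. The response regulators had a median of 0.57 for IL-3 at 2 h and 0.21 for the siRNA at 30 min with the floor doubled. Over Stat5a and Stat5b the median for IL-3 at 2 h was -0.53 with the floor halved and -1.60 without probe sets that can cross-hybridise, and for the siRNA at 30 min it was -0.98 with the floor halved, -0.88 with it doubled and -1.59 without those probe sets. The cause was not tested. None of the called ratios of members changed sign under these alternatives. Of the single members' ratios 22 moved by more than the SD between probe sets, such as Gars for the siRNA at 2 h on U74A and U74B alone (0.50), and 994 did not. Members near the floor, such as Sars, Psph and Gpt2, have the least room to show a lower level.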
